A study of Mus musculus with 5 samples.

Results

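In intestinal tumours, 10 genes of the bone morphogenetic protein (BMP) and transforming growth factor beta (TGF-beta) pathways were followed. They are the ligands Bmp2, Bmp4 and Bmp7, the receptors Bmpr1a and Tgfbr2, the inhibitory Smads Smad6 and Smad7, and the target genes Id1, Id2 and Id3. All probe sets that the platform annotation assigns to these 10 genes were taken, which gave 20 probe sets of 22626 tested, and all 10 genes were among the 12393 genes with a probe set of their own. The tested arrays were 3 from tumours of Apc1638N mice on the C57Bl6/J strain, called tumours 16, 18 and 2, and they were compared with 2 arrays from the normal gut of C57Bl6/J mice that were wild type, called wild types 36 and 62. All animals were labelled as males aged 8 months, and no treatment is named. For the wild types the labels name intestinal epithelium and for the tumours only the tumour, and in both groups the RNA came from cells cut out by laser capture microdissection, which lifts chosen cells from a tissue section under a microscope. Apc1638N is a germline allele that truncates Apc, a brake on Wnt signalling, so that every cell of these mice carries it and the tumours arise in mutant tissue, whereas the controls carry no mutant allele, and normal tissue of the mutant mice is not analysed here. The labels do not say that each array came from its own animal, so the p-values cover only the spread among these samples, which may be technical.

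BMP ligands bind a pair of type II and type I receptors, of which Bmpr1a is one of the type I kinases, and the type I kinase phosphorylates Smad1, Smad5 and Smad9, which join Smad4 and switch on targets such as the Id genes. TGF-beta ligands use Tgfbr2 as their type II receptor and signal through Smad2 and Smad3. Smad6 and Smad7 are induced by the pathway and feed back to block it. In the small intestine BMP signalling is strongest along the villus and is held low at the crypt base by secreted antagonists, and loss of Bmpr1a in mice leads to extra crypts and polyps. In intestinal cancers TGF-beta signalling is often lost, in human tumours through mutation of TGFBR2 or SMAD4.

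The regulatory sequence of 4 of the genes is shown because Id2 and Id3 are direct Smad targets and Tgfbr2 and Smad6 were the 2 genes that rose. RefSeq windows were given for 6 of the 10 genes (Bmp4, Id2, Id3, Smad6, Tgfbr2 and Bmpr1a). Each line below holds the 250 bases before the annotated gene start, 5′ to 3′ on the gene's strand, in build GRCm38.p6. The windows are chr12:25096093-25096342 on the minus strand for Id2, chr4:136143572-136143821 on the plus strand for Id3, chr9:116175364-116175613 on the minus strand for Tgfbr2 and chr9:64022060-64022309 on the minus strand for Smad6. Capitals mark matches, on either strand, to the motifs GGCGCC and CAGAC, which BMP and TGF-beta Smads are known to bind. No match overlapped another.
Id2: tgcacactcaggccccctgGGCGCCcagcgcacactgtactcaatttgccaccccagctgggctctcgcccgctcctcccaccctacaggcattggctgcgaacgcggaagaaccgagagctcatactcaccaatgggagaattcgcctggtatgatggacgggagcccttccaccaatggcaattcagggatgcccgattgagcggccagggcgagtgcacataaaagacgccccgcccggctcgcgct
Id3: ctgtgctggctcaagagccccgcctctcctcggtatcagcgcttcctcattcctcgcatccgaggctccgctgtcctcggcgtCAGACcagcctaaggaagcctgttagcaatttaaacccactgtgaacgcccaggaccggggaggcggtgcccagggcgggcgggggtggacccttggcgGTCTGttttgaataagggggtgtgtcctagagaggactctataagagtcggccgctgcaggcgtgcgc
Tgfbr2: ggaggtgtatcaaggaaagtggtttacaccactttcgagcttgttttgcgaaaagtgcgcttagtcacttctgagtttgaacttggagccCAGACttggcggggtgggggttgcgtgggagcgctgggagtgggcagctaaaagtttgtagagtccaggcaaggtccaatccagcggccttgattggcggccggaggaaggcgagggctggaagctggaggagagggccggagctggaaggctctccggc
Smad6: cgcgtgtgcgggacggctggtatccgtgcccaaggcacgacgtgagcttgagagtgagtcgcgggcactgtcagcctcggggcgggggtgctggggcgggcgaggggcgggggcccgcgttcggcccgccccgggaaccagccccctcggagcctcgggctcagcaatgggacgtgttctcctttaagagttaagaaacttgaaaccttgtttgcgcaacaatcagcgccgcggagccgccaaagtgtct

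The Id2 window held 1 GGCGCC, 231 bases before the start, and the Bmpr1a window held 1, at 198 bases. The Id3 window held 2 CAGAC matches, at 167 and 68 bases, and the Tgfbr2 window held 1, at 160 bases. The Smad6 and Bmp4 windows held 0 of either. GGCGCC occurred in 9.59% of all 32851 promoter windows of that length and CAGAC in 42.2%, and the longer palindrome GTCTAGAC, found in 0.167%, occurred in 0 of the 6. These matches describe the letters of the windows and were not tied to any value on the arrays.

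Of the 20 probe sets, 2 were higher in tumours (1 each of Tgfbr2 and Smad6), 1 was lower (Bmp2) and 17 did not pass an adjusted p of 0.05 in limma, where 18.3% of all 22626 probe sets passed, 9.58% higher and 8.72% lower. Read against that share, 3 of 20 is near the background. The tumour and wild-type values of 11 of the 20 probe sets did not overlap, 6 higher and 5 lower in tumours, and this held for 47.9% of all probe sets (25.3% higher and 22.5% lower). By its brightest probe set, the one with the highest mean over the 5 arrays, 3 of the 10 genes passed, against 20.4% of all genes. The groups of 5 genes lay apart with tumours higher and of 2 with tumours lower, against 27.0% and 23.7% of all genes. The median log2 change of the 10 was 0.13, against 0.0040 for all genes. All values below are log2 signals as the authors deposited them, and a change is tumour minus wild type on that scale with limma's standard error (SE).

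**Figure D1:**
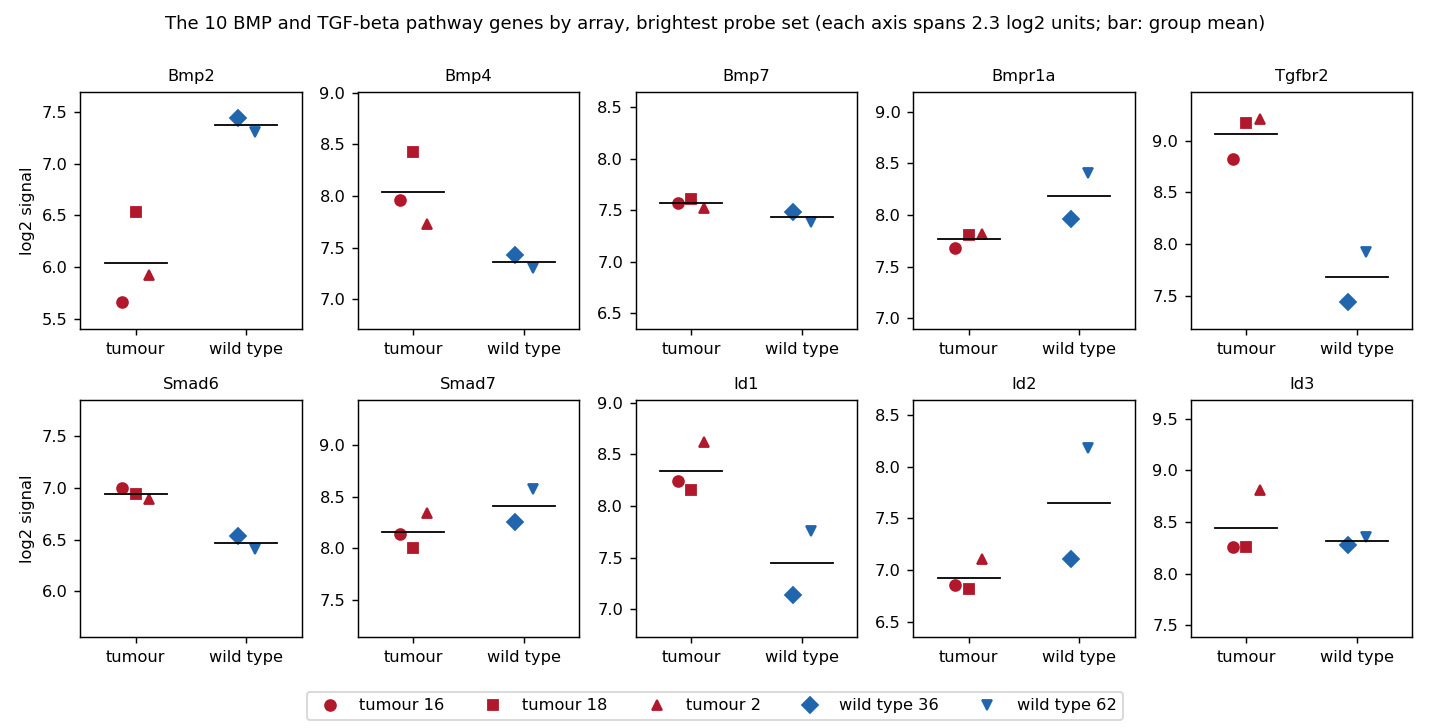
Log2 signal of the 10 genes in each array, by brightest probe set, with tumour arrays in red on the left and wild-type arrays in blue on the right of each panel; bars are group means and every axis spans the same 2.3 log2 units. Tgfbr2, Smad6, Bmp4, Bmp7 and Id1 are higher in every tumour array than in either wild-type array, Bmp2 and Bmpr1a are lower in every tumour array, and the groups overlap for Id2, Id3 and Smad7.

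Among the ligands, Bmp2 fell. Bmp2, which villus epithelium and underlying stroma both make, had signals of 5.66, 6.53 and 5.92 in tumours 16, 18 and 2, against 7.44 and 7.31 in wild types 36 and 62. Every tumour lay below both wild types, and tumours 16 and 2 were dimmer than the 25th percentile, which was 6.04 or more on each array, so the size of the fall is uncertain and no fold is given. The mean was 6.04 ± 0.45 in tumours (SD, n = 3) and 7.38 ± 0.09 in wild type (SD, n = 2), a change of -1.34 (SE 0.29, limma adjusted p = 0.0474). The call was lost with array weights (limma adjusted p = 0.0712), without the shared-target probe sets (0.0559) and without tumour 16, tumour 2, wild type 36 or wild type 62 (0.118, 0.126, 0.199 and 0.183), while the change stayed between -1.59 and -1.15 whichever array was dropped. With tied probe sets (equal values within a group) also dropped, it was lost only without wild type 36 or wild type 62 (0.141 and 0.129). Less signal in bulk RNA may be fewer cells of a type or less RNA per cell, and the arrays do not tell these apart.

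Bmp4, a ligand made chiefly by the mesenchyme below the epithelium, had signals of 7.96, 8.42 and 7.73 in tumours 16, 18 and 2, against 7.43 and 7.30 in wild types 36 and 62. All 3 tumours were above both wild types, with tumour 18 the highest. The change was 0.68 (SE 0.23, unadjusted 95% interval 0.055 to 1.30) and did not pass (limma adjusted p = 0.126). It passed only without both tumour 2 and the tied probe sets (change 0.83, limma adjusted p = 0.0342). Listed genes of fibroblasts and smooth muscle had the same order of arrays in their mean, though not each gene did. In the smooth muscle genes Myh11 and Des, tumour 18 was the lowest tumour. The mean log2 signal of 12 such genes was 8.19, 8.78 and 7.64 in tumours 16, 18 and 2 and 7.19 and 6.87 in wild types 36 and 62, and tumour 18 was the highest tumour for 10 of the 12. Of these 12 genes, decorin (Dcn, change 2.60) and smooth muscle actin (Acta2, 1.22) rose, 0 fell and 10 did not pass. Myh11 (-0.01) and Des (-0.04) were the 2 with a change below 0, against 10 above 0. Tumour 18 was also the highest tumour for 30 of the 94 other pathway genes, and its share among all genes is not given. Whether so few arrays can show a likeness of order between genes was not tested. The part of the 12 genes in the Bmp4 difference was not tested.

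Bmp7, a ligand expressed in many epithelia, did not pass in any of its 3 probe sets. Its brightest probe set had 7.57, 7.61 and 7.52 in tumours 16, 18 and 2, against 7.48 and 7.39 in wild types 36 and 62, a small difference with no overlap (change 0.14, limma adjusted p = 0.137). A dimmer one had 5.98, 6.61 and 6.25 in the same tumours, against 5.88 and 5.73 in the wild types (change 0.47, limma adjusted p = 0.208). The third, with a change of -0.06 (limma adjusted p = 0.392), held 5.75 on 3 of the 5 arrays. In the brightest probe sets of all 3 ligands tumour 18 was the highest of the tumours, for Bmp7 by little. The third Bmp7 probe set had equal values in tumours 16 and 18. How often tumour 18 is the highest over all genes is not given.

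The receptor Tgfbr2 rose. Tgfbr2, which binds TGF-beta and starts its signal, had signals of 8.82, 9.17 and 9.22 in tumours 16, 18 and 2, against 7.44 and 7.92 in wild types 36 and 62. The lowest tumour exceeded the higher wild type by 0.90. The mean was 9.07 ± 0.22 in tumours (SD, n = 3) and 7.68 ± 0.34 in wild type (SD, n = 2), a 2.62-fold difference (change 1.39, SE 0.21, limma adjusted p = 0.0229). The other 2 probe sets of the gene did not show it. One held 6.50, 6.45 and 6.50 in the same tumours and 6.50 in both wild types (change -0.02), with the same deposited value on 4 arrays, and the other ran from 4.75 to 4.86 in tumours and from 4.90 to 4.91 in wild type (change -0.08), dimmer than the 5th percentile, which was 4.96 or more on each array. Averaged over its 3 probe sets, Tgfbr2 had a change of 0.43 (limma adjusted p = 0.0204). This mean carries the change of the bright probe set, since the other 2 moved little, and it is not separate evidence. The call of the bright probe set was lost without tumour 16, tumour 18, tumour 2, wild type 36 or wild type 62 (limma adjusted p = 0.0667, 0.0920, 0.0640, 0.0960 and 0.0781), while the change stayed between 1.15 and 1.63. With tied probe sets dropped too, only the fit without wild type 36 lost it (0.0572).

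The BMP receptor Bmpr1a was measured by 5 probe sets, and 0 passed in limma, with 3 lower at an unadjusted p under 0.05. The brightest had 7.68, 7.80 and 7.81 in tumours 16, 18 and 2, against 7.96 and 8.41 in wild types 36 and 62 (change -0.42, SE 0.15, limma adjusted p = 0.147). A second had 6.57, 6.71 and 6.81 in the same tumours, against 6.94 and 7.23 in the wild types (change -0.39, limma adjusted p = 0.105). One more had 6.35, 6.53 and 6.78 in the tumours, against 7.08 and 7.29 in the wild types (change -0.63, SE 0.15, limma adjusted p = 0.0632). In these 3 probe sets every tumour was below every wild type, with tumour 16 the lowest and wild type 62 the highest in each. The probe set with the change of -0.63 is one whose target may be shared with other transcripts, and it passed under quantile normalization (limma adjusted p = 0.0380), median centring (0.0373), without dim probe sets (0.0427) and without tied ones (0.0402). The remaining 2 probe sets overlapped between the groups, with changes of 0.02 and -0.05.

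**Figure D2:**
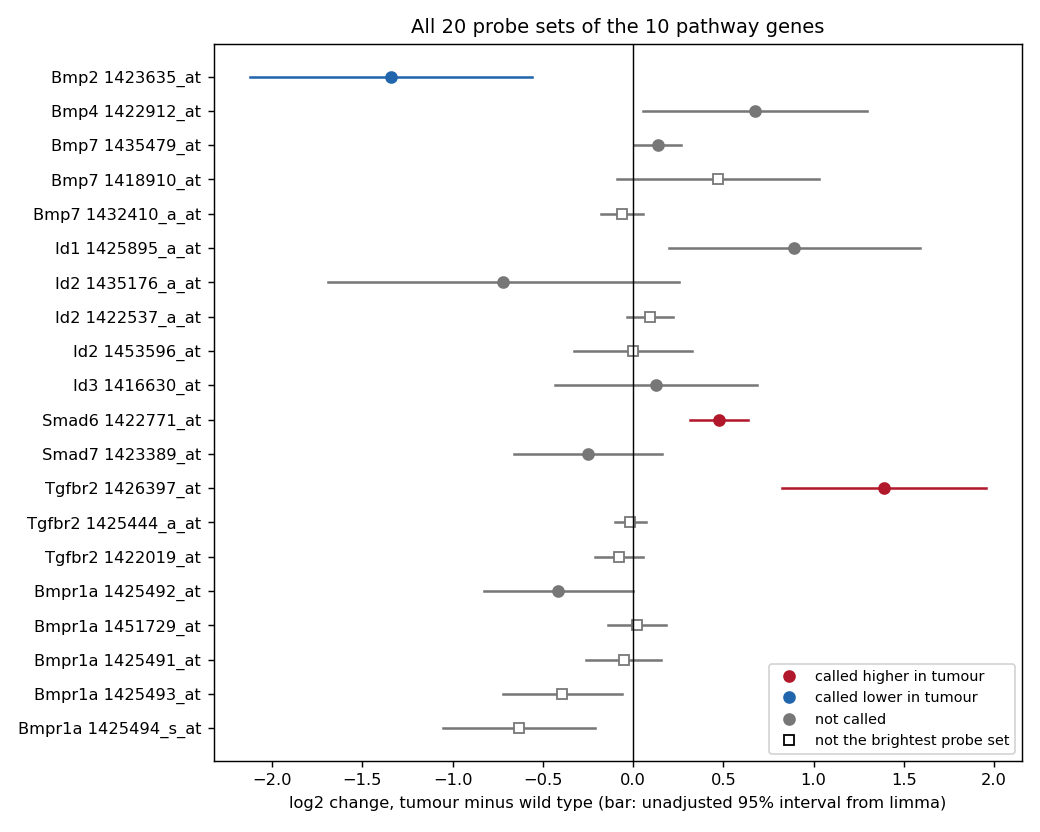
Log2 change (tumour minus wild type) of all 20 probe sets with unadjusted 95% intervals from limma; filled circles are the brightest probe set of each gene and open squares the others. The changes run from -1.34 (Bmp2) to 1.39 (Tgfbr2), and the other probe sets of Tgfbr2 lie at -0.02 and -0.08.

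Of the inhibitory Smads, Smad6 rose and Smad7 did not pass. Smad6, which competes with the BMP Smads, had signals of 7.0, 6.94 and 6.89 in tumours 16, 18 and 2, against 6.53 and 6.41 in wild types 36 and 62. The mean was 6.95 ± 0.05 in tumours (SD, n = 3) and 6.47 ± 0.09 in wild type (SD, n = 2), a 1.39-fold difference (change 0.48, SE 0.06, limma adjusted p = 0.0159). Its call was lost without tumour 16, tumour 18, wild type 36 or wild type 62 (limma adjusted p = 0.0708, 0.0699, 0.0577 and 0.0792), and with tied probe sets also left out it was lost only without wild type 62 (0.0561). Smad6 is also a gene of endothelial cells, whose 10 listed markers had a mean log2 signal of 6.67, 6.71 and 6.48 in tumours 16, 18 and 2 and of 6.55 and 6.45 in wild types 36 and 62. Of the 10 markers 0 were called in limma, with 2 higher and 0 lower at an unadjusted p under 0.05. The part of these markers in the Smad6 difference was not tested. Smad7, which blocks both branches, had 8.14, 8.00 and 8.34 in the tumours, against 8.25 and 8.57 in the wild types. The groups overlapped (change -0.25, unadjusted 95% interval -0.66 to 0.16, limma adjusted p = 0.331).

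The Id genes, which encode dominant-negative helix-loop-helix proteins and are standard readouts of BMP signalling, gave 0 of 5 probe sets called in limma, with 1 higher and 0 lower at an unadjusted p under 0.05. Id1 had signals of 8.24, 8.15 and 8.62 in tumours 16, 18 and 2, against 7.13 and 7.76 in wild types 36 and 62. All tumours exceeded both wild types (change 0.89, SE 0.25, unadjusted 95% interval 0.20 to 1.59, limma adjusted p = 0.0883). Its adjusted p ran from 0.0570 to 0.0876 over the alternatives that kept all arrays. Id3 had 8.26, 8.26 and 8.81 in the tumours, against 8.28 and 8.35 in the wild types. Tumours 16 and 18 thus lay below both wild types and tumour 2 above them (change 0.13, unadjusted 95% interval -0.43 to 0.68), and without tumour 2 the change was -0.06.

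Id2, which lymphocytes of the gut wall also express, had 6.86, 6.81 and 7.11 in tumours 16, 18 and 2 in its brightest probe set, against 7.11 and 8.19 in wild types 36 and 62. The difference rested on wild type 62, since wild type 36 held the same deposited value as tumour 2 (change -0.72, SE 0.36, limma adjusted p = 0.257, and -0.18 without wild type 62). The other Id2 probe sets had changes of 0.09 and 0.00. Of 12 leukocyte markers 5 fell (Ptprc, Cd3g, Gzma, Ccl5 and Jchain), 0 rose and 7 did not pass in limma, with 6 lower and 1 higher at an unadjusted p under 0.05. The list had a mean log2 signal of 6.88, 7.27 and 7.0 in tumours 16, 18 and 2, against 8.01 and 7.96 in wild types 36 and 62. Ptprc, the pan-leukocyte phosphatase, had 5.68, 6.0 and 6.03 in the tumours, each dimmer than the 25th percentile of its array, against 7.78 and 7.91 in the wild types. Lyz2, a lysozyme of myeloid cells, lay the other way (change 1.67, limma adjusted p = 0.0569) with no overlap. The part of these markers in the Id2 difference was not tested. In the brightest probe sets of all 3 Id genes, tumour 2 was the highest tumour and wild type 62 stood above wild type 36. Those of Tgfbr2, Bmpr1a and Smad7 had that order too, and those of Bmp2, Bmp4, Bmp7 and Smad6 did not. How often all genes have that order is not given.

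The other measured genes of the 2 pathways numbered 94 of 114 listed. By their brightest probe set 10 of them (10.6%) passed in limma in either direction, against 20.4% of all genes. The calls were 3 higher and 7 lower in tumours, where 10.5% of all genes passed higher and 9.92% lower. The groups did not overlap for 43 of the 94 genes, against 50.7% of all genes. Of 11 other BMP and growth differentiation factor genes 0 passed, and of 10 TGF-beta and activin ligands 0 passed, with 0 at an unadjusted p under 0.05 in either list. The brightest of these were Gdf9 (change 0.00) and Bmp1, a matrix protease and not a ligand despite its name (0.06), and Inhba, the activin beta-A subunit (0.37), and Gdf11 (-0.03). Gdf9 held the same deposited value (7.56) in all tumours, and Gdf11 also held tied values. The medians of the 2 lists were 0.00061 and 0.04.

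**Figure D3:**
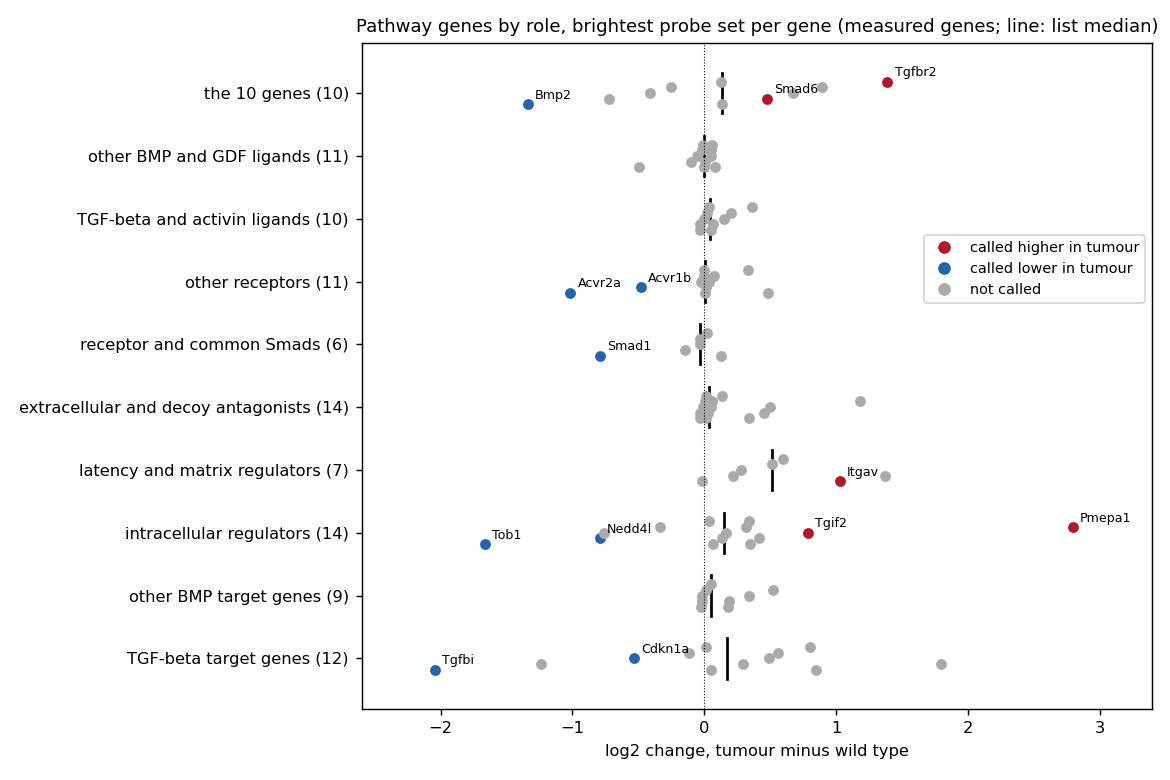
Log2 change (tumour minus wild type) of each measured pathway gene by role, brightest probe set per gene, with the list median as a vertical line; genes that passed limma's adjusted p of 0.05 are coloured and named. Pmepa1 lies farthest to the right (2.80) and Tgfbi farthest to the left (-2.04).

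Among 11 other receptors 2 fell and 0 rose. Acvr2a, an activin type II receptor, had signals of 7.41, 7.35 and 7.66 in tumours 16, 18 and 2, against 8.33 and 8.65 in wild types 36 and 62 (change -1.01, SE 0.15, limma adjusted p = 0.0220). Acvr1b, the activin type I receptor, had 9.36, 9.32 and 9.19 in the tumours, against 9.72 and 9.82 in the wild types (change -0.48, SE 0.07, limma adjusted p = 0.0211). The other probe sets of these genes had changes of -0.15 and 0.10 and did not pass. Of the 6 receptor-activated and common Smads only Smad1, a carrier of the BMP signal, passed. Smad1 had 7.90, 7.91 and 8.15 in the tumours, against 8.77 and 8.78 in the wild types (change -0.79, SE 0.10, limma adjusted p = 0.0157), and its second probe set had a change of -0.23 without a call. For Smad4, the shared partner, the change was 0.13 (limma adjusted p = 0.705), and Smad5 had a change of -0.14. Bmpr2, the BMP type II receptor, had a change of 0.49 and did not pass (limma adjusted p = 0.109). Smad4, Smad5 and Bmpr2 are named although they fall outside the rule for named genes, and were picked after their values were seen.

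Of 14 secreted or decoy antagonists 0 passed in limma, with 2 higher and 0 lower at an unadjusted p under 0.05, and the median change was 0.04. The brightest were Twsg1, which modulates BMP binding to its antagonist chordin (change 0.06), and Nbl1, a secreted BMP antagonist (0.05). Chosen after their values were seen, Fstl1, a secreted glycoprotein of stromal cells, had 7.40, 8.19 and 7.13 in tumours 16, 18 and 2, against 6.54 and 6.25 in wild types 36 and 62 (change 1.18, limma adjusted p = 0.102), and the antagonist Grem1 had 6.51, 6.96 and 6.27 in the tumours, against 6.18 and 5.98 in the wild types (change 0.50, limma adjusted p = 0.235). Both had the order of arrays described for Bmp4 and for the mean of the fibroblast list. Tumour 18 was the highest tumour for 30 of the 94 pathway genes. No share over all genes is given, and the likeness of order was not tested. Of 7 latency and matrix regulators 1 rose, with a list median of 0.51. This was Itgav, the integrin subunit that helps release latent TGF-beta, at 10.10, 10.18 and 10.52 in the tumours, against 9.19 and 9.29 in the wild types (change 1.03, SE 0.15, limma adjusted p = 0.0215), while its other probe sets had changes of 0.01 and 0.23.

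**Figure D4:**
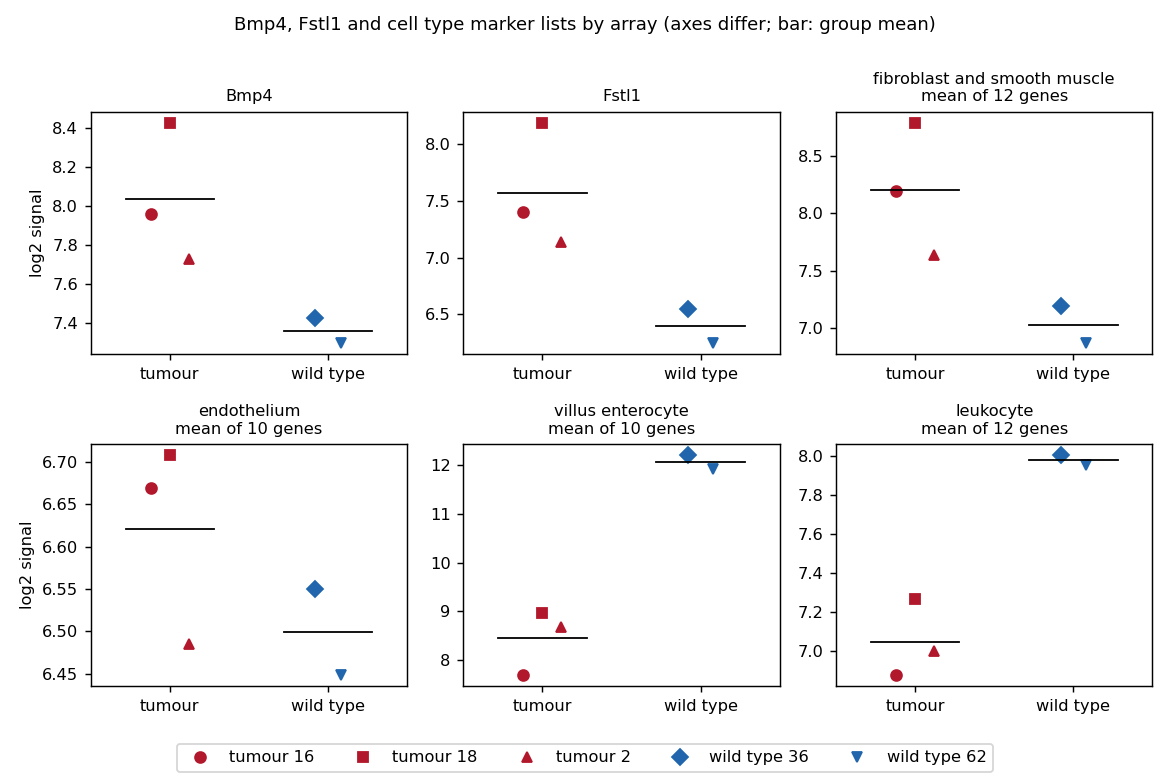
Log2 signal of Bmp4 and Fstl1 and the mean log2 signal of 4 marker lists in each array, tumour arrays in red on the left and wild-type arrays in blue on the right; axes differ and bars are group means. In Bmp4, Fstl1 and the fibroblast and smooth muscle list, tumour 18 is the highest array, then tumours 16 and 2, then wild types 36 and 62.

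Of 14 intracellular regulators 2 rose and 2 fell. Pmepa1, a membrane protein that TGF-beta induces and that dampens Smad activation, had the largest rise of the listed pathway genes that passed. Its signals were 9.35, 9.0 and 9.56 in tumours 16, 18 and 2, against 6.42 and 6.59 in wild types 36 and 62, a 6.94-fold difference (change 2.80, SE 0.19, limma adjusted p = 0.00663). A second probe set had 8.63, 8.53 and 8.91 in the tumours, against 5.98 and 6.02 in the wild types (limma adjusted p = 0.00518). Both of these wild-type values were dimmer than the 25th percentile of their arrays, so the size of that difference is uncertain. The third, dimmer probe set had a change of 0.41 (limma adjusted p = 0.0894). Tgif2, a homeodomain corepressor of Smads, rose by 0.79 (SE 0.12, limma adjusted p = 0.0249), with 7.51, 7.74 and 7.37 in the tumours, against 6.72 and 6.78 in the wild types. Tob1, an antiproliferative protein that restrains BMP Smads in mouse bone cells, fell, with 7.69, 7.30 and 7.32 in the tumours, against 8.97 and 9.23 in the wild types (change -1.66, SE 0.17, limma adjusted p = 0.0112). Nedd4l, a ubiquitin ligase that targets Smad2 and Smad3, had 7.41, 7.36 and 7.26 in the tumours, against 7.98 and 8.29 in the wild types (change -0.79, SE 0.11, limma adjusted p = 0.0213), and its second probe set had a change of -0.05.

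Target genes outside the Id family did not move one way. Of 9 other BMP targets 0 passed in limma, with 1 higher and 0 lower at an unadjusted p under 0.05. The homeobox gene Msx1 had 8.86, 8.52 and 8.83 in tumours 16, 18 and 2, against 8.27 and 8.16 in wild types 36 and 62 (change 0.52, limma adjusted p = 0.0641), and its second probe set had a change of 0.00. The brighter Msx1 probe set passed with the filter at the 40th percentile (limma adjusted p = 0.0442), without tied probe sets (0.0424), and without tumour 18 with those kept or dropped (0.0383 and 0.0168). The transcription factor gene Gata2 had a change of -0.02, with the same deposited value (7.69) in tumours 18 and 2 and wild type 62. Of 12 TGF-beta targets 2 fell and 0 rose, with 5 higher and 3 lower at an unadjusted p under 0.05. Tgfbi, a matrix protein named for its induction by TGF-beta, fell in all 4 of its probe sets. The brightest had 8.62, 9.49 and 8.53 in the tumours, against 11.05 and 10.80 in the wild types (change -2.04, SE 0.35, limma adjusted p = 0.0294). The others had changes of -2.57, -1.86 and -1.91 (limma adjusted p = 0.0137, 0.0302 and 0.00479). Cdkn1a, the cell cycle inhibitor p21, had 9.86, 9.93 and 10.10 in the tumours, against 10.42 and 10.57 in the wild types (change -0.53, SE 0.09, limma adjusted p = 0.0314), and its second probe set had a change of -0.70 (limma adjusted p = 0.0822). Col1a1, which stands in the TGF-beta target list and in the fibroblast list, had a change of 1.80 and did not pass. Col1a1 was picked after its value was seen.

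**Figure D5:**
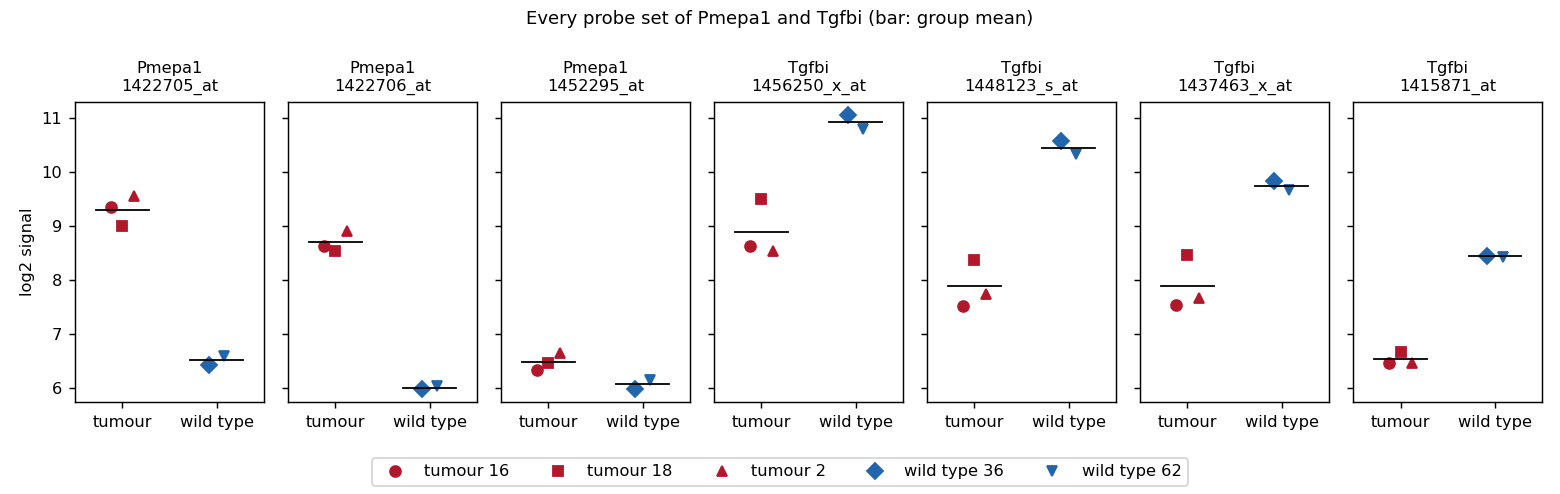
Log2 signal of every probe set of Pmepa1 (3) and Tgfbi (4) in each array, tumour arrays in red on the left and wild-type arrays in blue on the right, on 1 shared axis with bars at the group means. In every panel the tumour and wild-type arrays do not overlap, with Pmepa1 higher in tumours and Tgfbi lower.

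The calls depended on the arrays kept, to a different extent for each gene. Without wild type 36 or without wild type 62, 0 of the 13 called genes of both sets kept their call in limma, and without tumour 16, tumour 18 or tumour 2 the number that kept it was 2, 4 and 9. Acvr1b, Acvr2a, Smad1, Itgav and Cdkn1a lost it without tumour 16, tumour 18 or either wild type (limma adjusted p between 0.0656 and 0.149), Tgfbi without tumour 16, tumour 2 or either wild type (0.0717 to 0.148), and Nedd4l without any 1 of the 5 arrays (0.0506 to 0.0854). Tgif2 lost it without tumour 16 or either wild type (0.102 to 0.129), Tob1 without tumour 18 or either wild type (0.0510 to 0.0837) and Pmepa1 without either wild type (0.0579 and 0.0654). With tied probe sets also left out, 12, 12 and 13 kept it without tumours 16, 18 and 2, and 5 and 4 without wild types 36 and 62. Pmepa1, Tob1 and Nedd4l then kept it in all 5 fits. None of the 13 changed sign in any of these fits, but none could, because the groups of each did not overlap. The fits also share arrays with each other.

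The epithelial genes listed were measured in both groups and did not move one way. Of these 10 genes, the keratins Krt18 (change 2.44) and Krt19 (1.20) rose, Vil1, a brush-border actin binder, fell (-1.26), and 7 did not pass. At an unadjusted limma p under 0.05, 3 were higher and 4 lower. Among the 7 were Krt20 (-1.82, limma adjusted p = 0.0694), Cldn7 (-0.62), Krt8 (0.42) and Epcam (-0.48). The transcription factor Cdx1, whose signal lay between 7.14 and 7.65 on the 5 arrays, was also among them. The list had a mean log2 signal of 10.89, 10.70 and 11.04 in tumours 16, 18 and 2 and of 10.76 and 10.92 in wild types 36 and 62. Villus enterocyte genes fell in 7 of 10, and crypt genes rose in 6 of 9. The mean log2 signal of the enterocyte list was 7.69, 8.97 and 8.69 in the tumours, against 12.20 and 11.91 in the wild types, and that of the crypt list was 8.42, 8.70 and 8.33 in the tumours, against 7.06 and 7.18 in the wild types. The part of these markers in any result above was not tested. Between tumours the arrays correlated at 0.983 to 0.991 over all probe sets, the wild types at 0.99, and tumours with wild types at 0.909 to 0.937.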

How the data were processed

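The authors deposited 1 table of log2 signals for 22690 probe sets on 5 Affymetrix arrays. The values themselves gave the scale. Per the submitters' processing notes the R package was affy, and the background correction, summary and normalization are not given in the sources used here. Per the labels' protocols, RNA from captured cells was column-purified with DNase digestion and labelled with an Affymetrix small-sample protocol. Array medians lay between 6.81 and 6.87, and no further normalization was applied. The number of arrays limits the precision, and no detection calls were used.

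After 64 control probe sets were set aside, 22626 were fitted in limma 3.58.1 (R 4.3.3; lmFit and eBayes, group as the only term, 3 residual and 1.19 prior degrees of freedom), two-sided, with Benjamini-Hochberg adjustment over all probe sets and a threshold of 0.05. The steps were tested on simulated data that held no tied values, so that test does not cover the ties described below. Names came from GEO's platform annotation, with 1 symbol for 20380 probe sets, several for 691 and none for 1555. Each gene was represented by its brightest probe set. Among all probe sets, 1042 held 1 value in all tumours and 1716 in both wild types, which lowers the estimated spread, and 6 of the 20 studied probe sets held some tied value. With 3 arrays against 2, the smallest exact two-sided permutation p is 0.1.

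The 10 genes and all lists were chosen with earlier results of these data known. The rule for named genes took the 10 genes with every probe set, up to 3 called genes of each list in each direction, and the 2 brightest of a list with no called gene. The marker genes named were chosen after their values were seen. Promoter windows are RefSeq's, build GRCm38.p6. Alternatives were quantile normalization, median centring, a filter at the 40th percentile of mean signal, trended and robust variances, array weights, a fit over genes only, the mean of a gene's probe sets, leaving out probe sets with shared targets or with tied values, and leaving out each array. Where a wild-type array was left out, the other was assumed to vary like the tumours.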

Additional observations from a re-analysis of the deposited data

How the results depend on the processing

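Of the 20 probe sets, 2 were called higher under every alternative that kept all 5 arrays. Leaving out 1 array gave 0 to 1, and 1 to 3 without tied probe sets. The 1 lower call became 2 under quantile normalization, median centring, a filter at the 40th percentile and without tied probe sets. It became 0 in limma with array weights and without shared-target probe sets (4 and 3 lower at an unadjusted p under 0.05). Leaving out 1 array gave 0 to 1, and 0 to 2 without ties. The 3 other pathway genes called higher became 7 under quantile normalization, 5 under median centring, 6 with the filter (59 genes measured) and 6 without ties (75 measured). Leaving out 1 array gave 0 to 4 higher and 0 to 6 lower, and without ties 1 to 7 and 2 to 9. Over all probe sets, 2167 higher and 1972 lower became 1024 and 1200 without shared-target probe sets, with fewer tested. Leaving out 1 array gave 0 to 1875 higher and 0 to 1549 lower, and without ties 846 to 2833 (989 without wild type 36) and 857 to 2333. The count of 0, in limma without wild type 62, came with 3465 higher and 3217 lower at an unadjusted p under 0.05. Where not stated, the cause was not tested.

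Some uncalled changes near 0 turned sign. An Id2 probe set had 0.049 with array weights, and one of Bmpr1a had -0.0029 under quantile normalization and -0.012 under median centring. Gdf9 had -0.029 and -0.033 under these, and Bmp1 had -0.021 as the mean of its probe sets. Without 1 array the changes ran from -0.13 to 0.12 for that Id2 probe set (0.073 without tumour 2), -0.059 to 0.22 for Id3, -0.043 to 0.087 and -0.15 to 0.050 for a pair of Bmpr1a, -0.062 to 0.12 for Bmp1, -0.034 to 0.13 for Nbl1 and -0.0010 to 0.10 for Twsg1. Without wild type 36 and tied probe sets, the brightest probe sets of Id2 and Bmpr1a passed (limma adjusted p = 0.0341 and 0.0363). No paired analysis was possible because the tumours and wild types share no replicate number.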
